A study of Mus musculus with 96 samples.

Results

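The miR-28, miR-151 and miR-708 family is a set of mammalian miRNAs that derive from LINE-2 elements. Its 6 members here are mmu-miR-151-5p, mmu-miR-151-3p, mmu-miR-28a-5p, mmu-miR-28a-3p, mmu-miR-708-5p and mmu-miR-708-3p, the arms of 3 mouse hairpins, and the prefix mmu is left out below. They were taken by name from 1978 mature miRNAs, of which 1561 had at least 1 count. The family was chosen by measured values, since the arms of miR-151 were known to exchange rank in cardiomyocytes after infarction. The values of miR-151 in cardiomyocytes are therefore a description without a test.

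The libraries came from hearts of male C57Bl/6J mice of 12 to 14 weeks. D0 hearts were controls without infarction, from mice that had no operation. The others were taken 1, 3, 7, 14 and 28 days (D1 to D28) after permanent ligation of the left anterior descending artery, which causes a myocardial infarction. In the changes from D0, the infarction and the operation therefore cannot be told apart. No other agent or allele is named in the labels. Small RNA was measured in hematopoietic cells (HCs, bound by beads against CD45), endothelial cells (ECs, bound by beads against CD144), fibroblasts (FBs, attached to plastic and mostly positive for DDR2) and cardiomyocytes (CMs, enriched by centrifugation), with 4 libraries per cell type and day and 96 in all. Each library holds pooled RNA of 3 mice, or of 2 where a sample was missing. The 4 libraries of a group are called both biological and technical replicates, so the p-values measure only the spread between these pools. Within a day the pools of all cell types came from the same mice, and which numbered pools share mice is not given in the sources used here, so tests between cell types treat related libraries as independent. Input and PCR cycles differed (500 ng and 14 cycles for CMs, 50 ng and 16 for ECs, 150 ng and 15 for FBs and HCs) and cannot be told apart from the cell type.

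The libraries held 3327351 to 24279105 mature counts for CMs, 525651 to 29037628 for ECs, 2217588 to 65588543 for FBs and 18286 to 29504666 for HCs. The shallowest was replicate 3 of HCs at D0, with 0 to 30 counts for each member, and the changes of HCs from D0 are also given without it. All 13 marker miRNAs of the 4 cell types, such as miR-1a-3p of CMs, were highest in their own cell type. In bulk libraries, fewer cells of a type and less RNA per cell cannot be told apart.

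A miRNA hairpin yields a 5p and a 3p strand. Usually one is loaded into Argonaute and the other is degraded, so the ratio of the arms reports the strand that remained. Bases 2 to 8 of the strand, the seed, pair with target mRNAs, and the arms of a hairpin therefore address different targets. All 3 hairpins lie within introns, on the strand of their host gene. In GRCm38 Mir151 is at chr15:73254815-73254882 on the minus strand in Ptk2, the gene of focal adhesion kinase. Mir28a is at chr16:24827855-24827940 on the plus strand in Lpp, the gene of a LIM domain protein of focal adhesions. Mir708 is at chr7:96249424-96249532 on the plus strand in Tenm4, the gene of a teneurin.

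RefSeq for GRCm38.p6 held mature sequences of 4 of the 6 members. They are shown 5′ to 3′ with the seed in capitals, because the seed tells which arms can be summed, and all 4 lie on the plus strand.
miR-28a-5p, chr16:24827868-24827889: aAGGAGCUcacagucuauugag
miR-708-5p, chr7:96249450-96249472: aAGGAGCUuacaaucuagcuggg
miR-28a-3p, chr16:24827908-24827929: cACUAGAUugugagcugcugga
miR-708-3p, chr7:96249496-96249517: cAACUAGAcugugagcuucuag

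Both 5p arms carry the seed AGGAGCU, which no other of the 1679 mature mouse miRNAs in that table has, and 16 of 22 bases are identical. The table lacks miR-28c and the arms of miR-151, so their seeds were not compared. The 3p arms of miR-28a and miR-708 have different seeds and only 2 of 22 identical bases when aligned from the first base. Both 3p arms hold the run UGUGAGCU, from base 9 in miR-28a-3p and from base 10 in miR-708-3p.

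miR-151 was the abundant hairpin, miR-28a was intermediate and miR-708 was rare. Levels are given as CPM, the count relative to all mature counts of the library, and ligation can favour single sequences, so different miRNAs are only roughly comparable. Over all days (24 libraries per cell type) miR-151-3p had a mean of 3669 CPM in ECs, where it ranked 37 of 1978, 1497 CPM in FBs, 778.8 CPM in HCs and 292.5 CPM in CMs. miR-151-5p had the same order of cell types, from 668 and 380.9 CPM (ECs and FBs) to 314.5 and 204.8 CPM (HCs and CMs). The arms of miR-28a lay between 56.5 CPM (3p, CMs) and 196.7 CPM (5p, HCs), and those of miR-708 between 1.62 CPM (3p, CMs) and 6.68 CPM (5p, ECs).

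miR-708-5p contributed little to the seed it shares with miR-28a-5p. Its mean share of their summed CPM was 1.73% in FBs, 2.67% in CMs, 3.05% in HCs and 4.98% in ECs, with 11.4% as the highest share of a library. The sum was lowest in CMs (99.3 ± 57.6 CPM), followed by ECs (142 ± 49.1 CPM), FBs (171.6 ± 29.9 CPM) and HCs (202.4 ± 38.2 CPM; SD, n = 24). The related miR-28b and miR-28c had 1 and 15 counts in all libraries together.

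**Figure D1:**
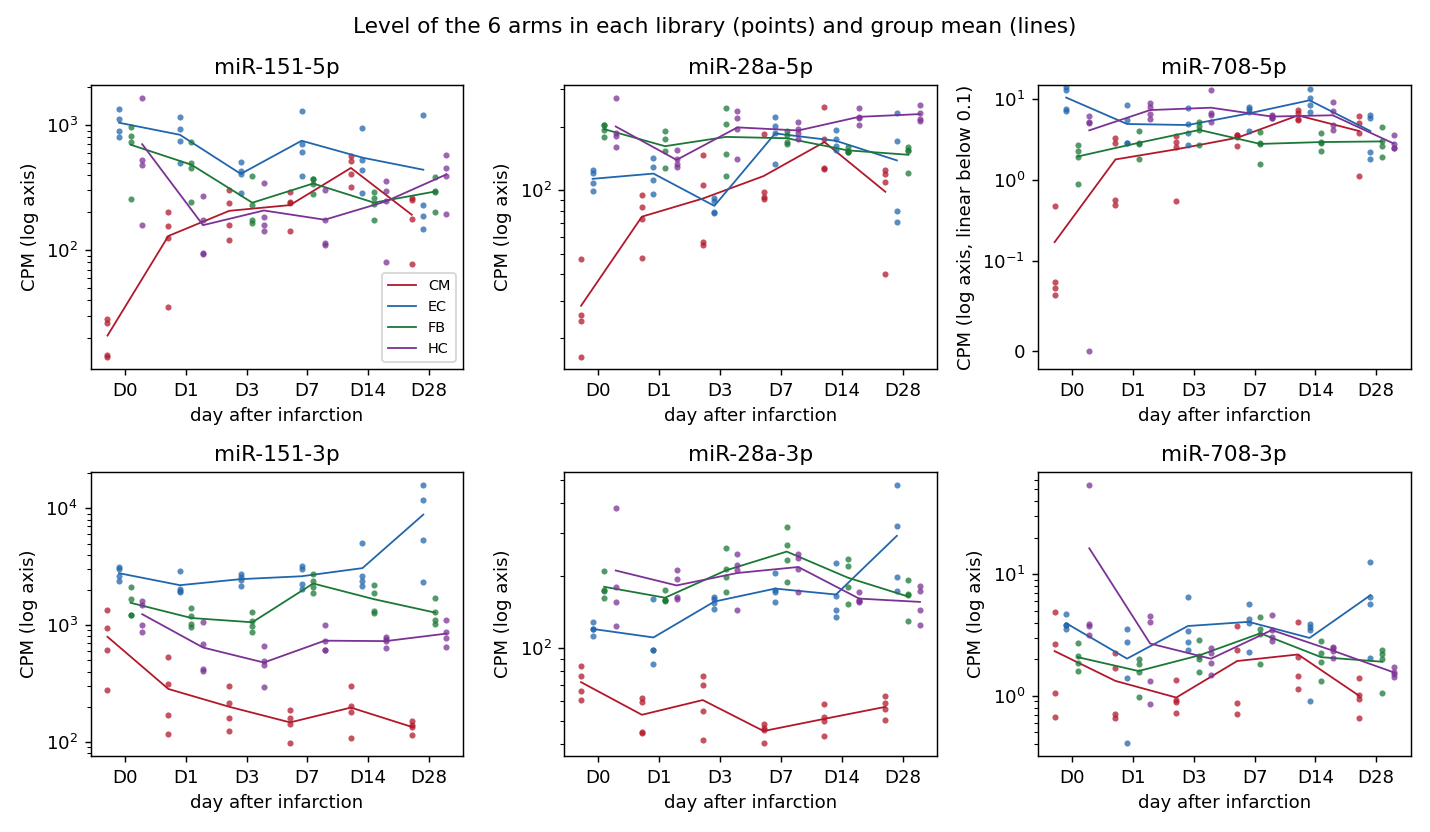
Level of each arm in every library (points, CPM on a log axis, for miR-708-5p linear below 0.1) against the day, coloured by cell type, with lines through the means of 4 libraries. In CMs miR-151-5p lies at 14.1 to 28.0 CPM at D0 and at 320.7 to 568.7 CPM at D14, and in ECs miR-151-3p reaches 15993 CPM at D28.

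In CMs the balance of the arms moved from 3p to 5p in each hairpin. For mir-151 the 5p arm held 8.65%, 2.35%, 1.04% and 2.87% of the counts of both arms in replicates 1 to 4 of D0. It held 59.5%, 62.9%, 60.0% and 60.8% at D7 and 73.9%, 63.2%, 74.8% and 69.6% at D14. The 3p arm was thus the major arm in every D0 library and the 5p arm in every D7 and D14 library. As log2 of 5p over 3p counts, the ratio was -5.10 ± 1.30 for D0, -1.15 ± 2.00 for D1 and 0.03 ± 1.08 for D3. It was then 0.63 ± 0.09 for D7, 1.26 ± 0.36 for D14 and 0.37 ± 0.89 for D28 (SD, n = 4).

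The arms of mir-28a exchanged rank as well, and here the change was tested. The 5p share was 21.2%, 22.1%, 25.0% and 41.5% at D0 and 77.2%, 74.8%, 71.5% and 80.9% at D14, without overlap. The log2 ratio went from -1.45 ± 0.65 to 1.68 ± 0.32 (SD, n = 4). It rose at all 5 days in limma, by 1.92, 1.94, 2.74, 3.13 and 2.11 from D1 to D28 (log2, SE 0.49 each), with adjusted p-values from 0.0059 (D1) to 1.5e-05 (D14).

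The ratio of mir-708 rose on far fewer counts. At D0 the 5p arm had 5, 1, 1 and 1 counts and the 3p arm 7, 15, 79 and 35. At D14 the 5p arm had 30, 29, 22 and 108 counts and the 3p arm 8, 21, 7 and 17, so the 5p arm was the larger in every D14 library and the smaller in every D0 library. The log2 ratio was -3.53 ± 2.27 at D0 and 1.63 ± 0.90 at D14, and it rose at all 5 days, by 3.67 ± 1.09 (D1, adjusted p = 0.012) to 5.28 ± 1.09 (D28, adjusted p = 3.1e-04) in limma. With 1 to 5 counts at D0, the 5p arm reached the required mean count through the later days, so this test is not independent of the filter.

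Many hairpins of CMs changed their ratio. Over the days 70.7% of the 99 hairpins tested passed, as did both tested hairpins of the family (mir-28a with an adjusted p of 2.4e-04 and mir-708 with 0.0016, limma). The tests of mir-708 are again not independent of the filter. At D1, D3, D7, D14 and D28 the ratio rose in 24.2%, 35.4%, 34.3%, 38.4% and 33.3% of all hairpins, and both tested hairpins rose at each day. The median change of all hairpins lay between -0.22 (D28) and 0.11 (D14), and the ratio of mir-151, without a test, was higher than at D0 by 3.96 (D1) to 6.36 (D14).

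**Figure D2:**
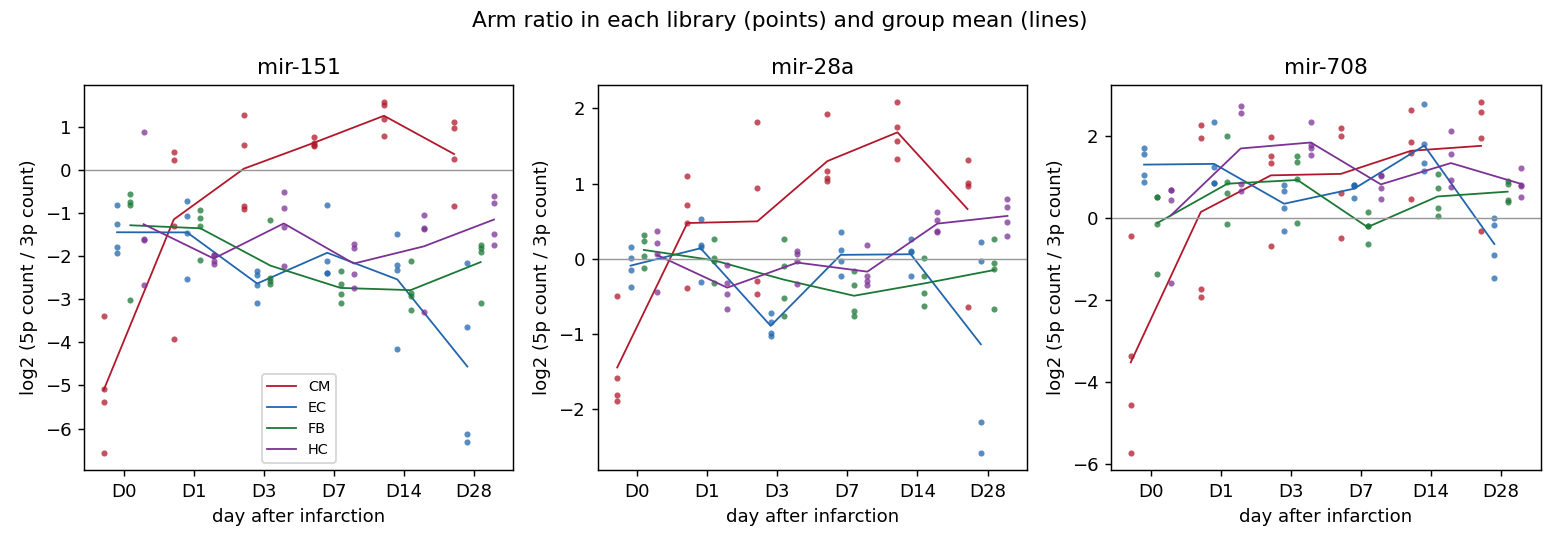
Arm ratio (log2 of 5p over 3p counts) of the 3 hairpins by day, 1 point per library coloured by cell type, with lines through the means of 4 libraries and a line at equal counts. In CMs the D0 means are -5.10 for mir-151, -1.45 for mir-28a and -3.53 for mir-708, and the D14 means are 1.26, 1.68 and 1.63.

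The libraries within a day differed, in particular at D1. In replicates 1 to 4 of CMs at D1 the log2 ratio of mir-151 was -3.92, -1.31, 0.42 and 0.23. That of mir-28a was -0.39, 0.72, 1.10 and 0.48, and that of mir-708 was -1.73, -1.93, 2.27 and 1.95. Replicates 3 and 4 were thus above replicate 1 for all 3 hairpins. At D28 replicate 1 was the lowest for all 3, with -0.84, -0.64 and -0.33. The D14 libraries held 5525000, 5169258, 3327351 and 14938730 mature counts, and 62.9%, 70.8%, 83.0% and 48.8% of their reads matched no mature miRNA. The D0 libraries held 10504090 to 16052359, with 29.0% to 42.0% unmatched, and the D7 libraries 12638115 to 16975435, with 41.8% to 46.2%. The part of these differences in the ratios was not tested.

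Marker miRNAs of other cell types moved with these ratios in CMs, and their part in the result was not tested. The 3 FB markers together made up 0.0093%, 0.014%, 0.040% and 0.039% of the counts in replicates 1 to 4 of D1, and 0.040% in replicate 1 of D28 compared with 0.091% to 0.127% in replicates 2 to 4. From D0 to D14 their mean share went from 0.0057% (range 0.0037% to 0.011%) to 0.189% (0.136% to 0.219%). The 2 EC markers went from 0.692% (0.442% to 0.979%) to 2.40% (1.93% to 2.77%) and the 4 HC markers from 0.0031% (0.0015% to 0.0076%) to 0.017% (0.015% to 0.018%). The 4 CM markers went from 65.9% (60.3% to 70.9%) to 37.4% (31.1% to 41.9%). Most of the HC marker share in CMs was miR-150-5p, which was about as high in ECs as in HCs. Over all days it had 85.2 CPM in CMs, against 4.72 to 16.4 CPM for the other HC markers. The ratio of mir-151 in the CM libraries of D7 and D14 (0.55 to 1.57) was above that of every EC library (at most -0.72) and every FB library (at most -0.56). It was also above every HC library (at most -0.51) except the shallow one, which had 0.89 on 46 counts. The ratio of mir-28a in the CM libraries of D14 (1.33 to 2.08) was above all libraries of the other cell types (at most 0.80), whereas that of mir-708 (0.46 to 2.63) lay within the ranges of ECs (-1.47 to 2.76) and HCs (-1.58 to 2.71).

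**Figure D3:**
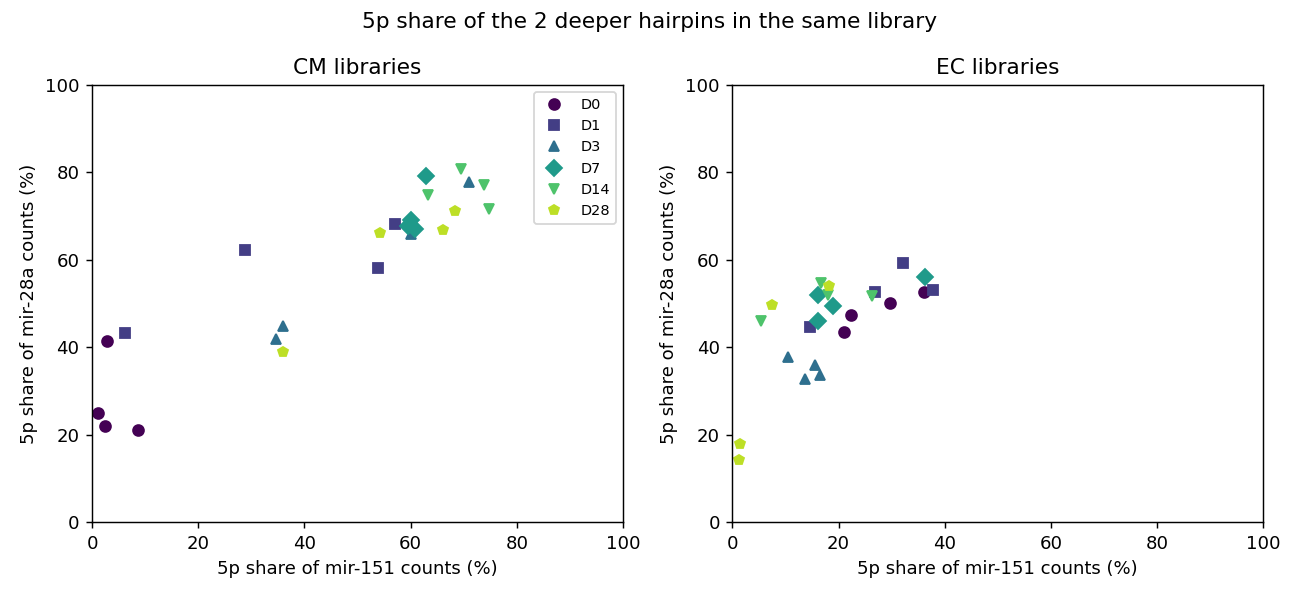
Share of the 5p arm in the counts of both arms (percent) of mir-151 (x axis) against mir-28a (y axis), 1 point per library, for CMs and ECs by day. CM libraries of D0 lie at 1.04% to 8.65% for mir-151 and those of D14 at 63.2% to 74.8%, and replicates 2 and 3 of ECs at D28 lie at 1.24% and 1.41%.

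The change of each single arm in CMs depends on the scaling of the libraries. In CPM miR-151-5p had 26.4, 14.7, 14.1 and 28.0 at D0 and 568.7, 512.6, 320.7 and 408.5 at D14, without overlap. miR-151-3p had 278.7, 609.1, 1339 and 948.7 CPM at D0 and 200.9, 298.3, 107.9 and 178.8 CPM at D14, where 1 library lay within the range of D0. The sum of both arms was 814.8 ± 452 CPM at D0 and 649.1 ± 176.2 CPM at D14 (SD, n = 4).

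miR-28a-5p had 16.3, 24, 25.7 and 47.3 CPM at D0 and 175, 127.3, 125.3 and 247.9 CPM at D14. miR-28a-3p had 60.6, 84.5, 76.9 and 66.6 CPM at D0 and 51.8, 42.9, 49.9 and 58.6 CPM at D14. On this scale every D14 library was above D0 for the 5p arm and below it for the 3p arm. miR-708-5p had 0.48, 0.071, 0.062 and 0.076 CPM at D0 and 5.43, 5.61, 6.61 and 7.23 CPM at D14, without overlap. miR-708-3p had 0.67, 1.06, 4.92 and 2.68 CPM at D0 and 0.92, 0.88, 1.35 and 0.72 CPM at D3, with overlap.

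The test used TMM factors, which align libraries on the bulk of their miRNAs and were 0.289 to 0.357 in CMs at D0 and 1.91 to 2.04 at D14. On this scale 15 of 20 comparisons of miR-28a and miR-708 with D0 passed in edgeR's quasi-likelihood test, 3 of 4 members at each day. As background 25%, 55.2%, 69%, 67.1% and 54.3% of the 484 miRNAs tested passed at D1, D3, D7, D14 and D28. miR-28a-3p fell at all 5 days, with log2 changes of -1.55, -2.15, -2.98, -3.13 and -2.01 from D1 to D28 (SE 0.34 to 0.36) and adjusted p-values from 0.0054 (D1) to 2.3e-07 (D14). miR-708-3p fell at all 5 days, with log2 changes of -1.77 ± 0.65 (D1, adjusted p = 0.046) to -3.21 ± 0.69 (D3, adjusted p = 5.1e-04).

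miR-708-5p rose at all 5 days, by 1.97 ± 0.63 (D3, edgeR, adjusted p = 0.011) to 2.81 ± 0.62 (D28, adjusted p = 6.6e-04). With 1 to 5 counts at D0, this arm passed the filter through the later days, so its test is not independent of the filter. miR-28a-5p passed at 0 days in edgeR and in DESeq2, with 0 days at an unadjusted p under 0.05 and log2 changes of -0.28 to 0.21. Over all days 3 of 4 members passed, where 73.8% of all miRNAs did. miR-151, without a test, had log2 changes of 1.15 (D7) to 1.87 (D14) for the 5p arm and of -2.35 (D1) to -4.76 (D7) for the 3p arm. On the TMM scale 1, 2, 2, 2 and 2 of the 4 arms of miR-28a and miR-708 did not overlap with D0 at D1, D3, D7, D14 and D28, where 11.6%, 40.5%, 57%, 54.8% and 43.8% of all miRNAs did not.

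Scaled by library size alone, the median change of all CM miRNAs at D14 was 2.99 in place of 0.41, with 402 miRNAs higher and 22 lower in place of 184 and 141. The changes of single arms are read against these medians. On that scale miR-28a-5p rose at all 5 days, by 1.40 ± 0.41 (D1, edgeR, adjusted p = 0.0055) to 2.58 ± 0.42 (D14, adjusted p = 6.8e-06). miR-28a-3p passed on 2 of the 5 days, with -0.67 ± 0.22 for D7 (adjusted p = 0.0079) and -0.51 ± 0.22 for D14 (adjusted p = 0.040), and miR-708-3p passed at no day (-0.15 to -1.27, lowest adjusted p = 0.053 in edgeR). miR-708-5p rose at all 5 days with both scalings.

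The calls of miR-708 at D1 rest on few counts. That of miR-708-3p was lost in 13 of the 24 fits that left out 1 library, and without replicate 3 of D0 the change was -0.93 (edgeR, adjusted p = 0.33). That of miR-708-5p was lost in 5 of 24, without replicate 2, 3 or 4 of D0 or replicate 3 or 4 of D1, with adjusted p-values up to 0.086. With only the libraries of D0 and D1 in the fit, none of the 3 calls at D1 passed in edgeR (adjusted p = 0.057 for miR-28a-3p, 0.11 for miR-708-5p and 0.16 for miR-708-3p). Without replicate 1 of D0, miR-708-5p rose by 3.16 at D1 and 2.98 at D3.

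**Figure D4:**
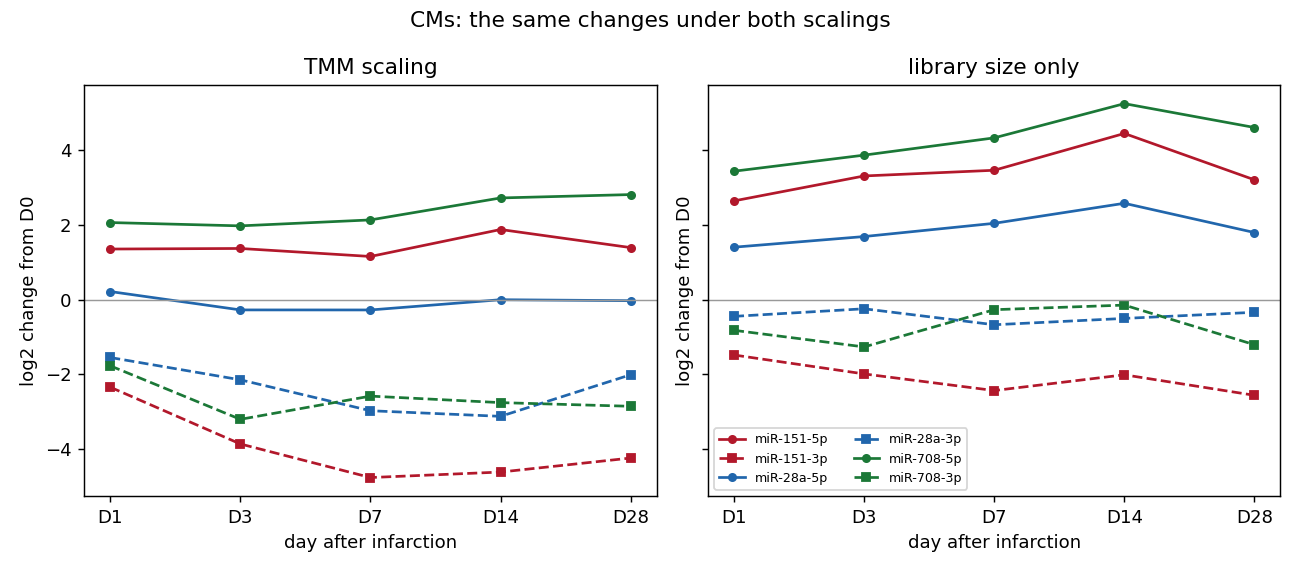
Log2 change from D0 of each arm in CMs by day, with TMM factors and with library size only, 1 line per arm. The 5p arm of each hairpin lies above its 3p arm under both scalings, while all lines shift (miR-28a-5p at D14 has -0.0045 with TMM factors and 2.58 with library size).

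In ECs at D28 the ratios moved the other way. For mir-151 the log2 ratio was -0.82, -1.24, -1.80 and -1.92 at D0 and -2.17, -6.31, -6.12 and -3.65 at D28, and every D28 library was below every D0 library. It fell by 3.12 ± 0.72 (log2 ± SE, limma, adjusted p = 0.0020). The ratio of mir-708 fell by 1.94 ± 0.40 (adjusted p = 8.1e-04), from 1.29 ± 0.39 to -0.64 ± 0.68 (SD, n = 4), on 3 to 12 counts per arm at D28. The ratio of mir-28a was 0.15, 0.01, -0.15 and -0.37 at D0 and 0.23, -2.58, -2.18 and -0.02 at D28, so that 2 libraries were low and 2 were not, and it did not pass at D28 (-1.05 ± 0.44, adjusted p = 0.065).

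At D28 2 of the 3 hairpins passed, where 38.5% of the 104 hairpins did. At D1, D3, D7 and D14 none passed in limma, where 0%, 2.88%, 0% and 0% did, and 1 of these comparisons had an unadjusted p under 0.05 (mir-708 at D3, -0.95 ± 0.40). Over all days mir-151 (adjusted p = 0.012) and mir-708 (adjusted p = 9.8e-04) passed in limma, where 40.4% of the hairpins did. Without replicate 3 of D28 the adjusted p of mir-151 was 0.052. For mir-28a the adjusted p was 0.057 with all libraries, 0.0057 without replicate 1 of D28, 0.014 without replicate 4 and 0.14 without replicate 3. With all libraries it was 0.037 with 5 added to each count and 0.033 with a mean of at least 50 counts per arm (limma).

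The EC markers made up 22.4%, 10.4%, 15.6% and 11.6% of the counts in replicates 1 to 4 of ECs at D28 and 17.5% to 21.5% at D0. The CM markers made up 2.10%, 8.07%, 4.04% and 5.48% at D28 and 7.60% to 13.4% at D0. The FB markers made up 0.780%, 0.219%, 0.274% and 0.773% at D28 and 0.202% to 0.284% at D0, and the 2 libraries with the low shares were the 2 with the lowest ratios of mir-151 and mir-28a. The D28 libraries were also poorer, with 416 to 536 mature miRNAs detected against 574 to 808 at D0. Reads that matched no mature miRNA were 66.0% to 77.5% at D28 and 48.5% to 67.3% at D0. Replicates 1 and 3 of D28 held 525651 and 636084 mature counts. The part of these markers and of library quality in the ratios was not tested.

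Which arm of mir-151 moved differed between the D28 libraries. miR-151-3p had 2374, 2638, 3124 and 3006 CPM at D0 and 5340, 11736, 15993 and 2333 CPM at D28, so that 3 libraries were above D0 and 1 was below it. It rose by 1.64 ± 0.33 (edgeR, adjusted p = 2.5e-04). miR-151-5p had 1346, 1113, 899.7 and 796.5 CPM at D0 and 1189, 147.6, 229.5 and 185.8 CPM at D28, and replicate 1 of D28 lay within the range of D0. It fell by 1.36 ± 0.45 (adjusted p = 0.014), by 2.51 without replicate 1, and by 1.17 without replicate 4, where the call was lost (adjusted p = 0.0501, edgeR).

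miR-28a-3p had 112.1, 120.2, 119.5 and 128.7 CPM at D0 and 197.8, 478.2, 322.3 and 173.2 CPM at D28, without overlap. It rose by 1.36 ± 0.27 (edgeR, adjusted p = 2.0e-04) and by 0.85 without replicate 2 of D28 (adjusted p = 0.0024). miR-28a-5p did not pass (0.35 ± 0.27, adjusted p = 0.29), but without replicate 3 of D28 its change was 0.60 with an adjusted p of 0.031 in edgeR. miR-708-5p fell by 1.60 ± 0.47 (adjusted p = 0.0060), from 14.1, 7.37, 7.04 and 12.8 CPM to 5.71, 2.19, 6.29 and 1.79 CPM, which stand for 3, 4, 4 and 7 counts. miR-708-3p did not pass (0.60 ± 0.53, edgeR, adjusted p = 0.36).

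Fewer members passed at the earlier days in ECs. At D1 0 members passed in edgeR and DESeq2, 1 had an unadjusted p under 0.05, and 0% of the 421 miRNAs passed. At D3 miR-151-5p fell by 1.37 ± 0.45 (edgeR, adjusted p = 0.029) and miR-708-5p by 1.17 ± 0.38 (adjusted p = 0.028). At D7 miR-708-5p fell by 0.99 ± 0.37 (adjusted p = 0.0499), and at D14 0 members passed in edgeR, 1 had an unadjusted p under 0.05 and 1 passed in DESeq2. These 3 calls were lost in 5, 5 and 14 of the 24 fits without 1 library, with the highest adjusted p in edgeR at 0.088 and 0.101 without replicate 1 of D3, and at 0.164 without replicate 1 of D0.

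The members that passed in ECs were thus 0, 2, 1, 0 and 4 of 6 at D1, D3, D7, D14 and D28, where 0%, 17.6%, 22.6%, 14.5% and 47% of all miRNAs passed. Over all days 4 of 6 passed, where 58.2% did. On the TMM scale 0, 3, 2, 1 and 2 members did not overlap with D0, where 6.89%, 33.7%, 32.8%, 26.1% and 32.3% of all miRNAs did not.

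**Figure D5:**
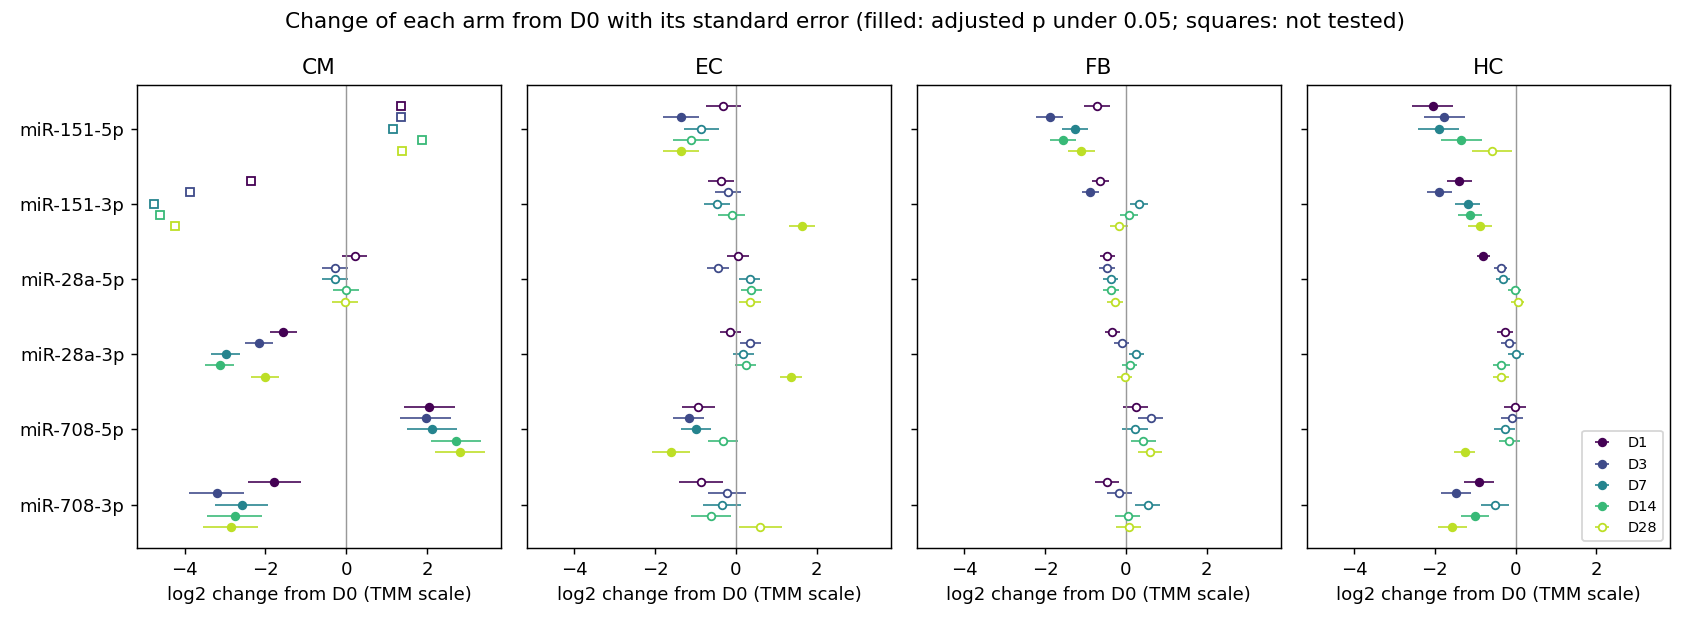
Log2 change from D0 of each arm on the TMM scale in the 4 cell types by day, with standard errors, filled where the adjusted p is under 0.05 and as open squares for miR-151 in CMs, which was not tested. miR-28a-3p in CMs lies between -1.55 and -3.13, and miR-151-3p lies at 1.64 in ECs at D28 and between -0.88 and -1.89 in HCs.

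In FBs the arms that passed in edgeR on the TMM scale were those of miR-151. miR-151-5p had 965.8, 257.9, 819.5 and 732 CPM at D0, with replicate 2 as the lowest, and 389.2, 174, 165.4 and 227.3 CPM at D3. Its log2 changes from D3 to D28 were -1.88, -1.25, -1.55 and -1.10 (SE 0.33 each), and all passed in edgeR, with adjusted p-values from 6.0e-05 (D3) to 0.037 (D28). Without replicate 2 of D0 it fell by 2.10, 1.48, 1.72 and 1.39. The call at D28 was lost in 6 of 24 fits without 1 library, without replicate 1, 3 or 4 of D0 or of D28, with adjusted p-values up to 0.16 in edgeR (without replicate 4 of D28).

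miR-151-3p had 1687, 2101, 1212 and 1215 CPM at D0 and 867.2, 1089, 980.3 and 1293 CPM at D3, where the groups overlapped on this scale. It fell at D3 by 0.88 ± 0.21 (edgeR, adjusted p = 0.0018). At D7 its change was 0.33 ± 0.21, and without replicate 2 of D0 it was 0.54 with an adjusted p of 0.041 in edgeR. Of the 20 comparisons of miR-28a and miR-708, 0 passed in edgeR and 2 had an unadjusted p under 0.05, both of miR-28a-5p (-0.45 ± 0.19 at D1 and -0.46 ± 0.19 at D3). Other settings passed 3 of them: miR-28a-5p fell at D3 in DESeq2 (-0.46 ± 0.17, adjusted p = 0.021), and with library size only miR-708-5p rose at D3 (0.95 ± 0.31, adjusted p = 0.015) and miR-28a-3p at D7 (0.49 ± 0.18, adjusted p = 0.032) in edgeR. The mean share of the FB markers in FBs was 5.46% at D0 and 5.35% to 7.64% later, and that of the EC markers was 2.72% at D0 and 1.90% to 3.35% later, and their part in the changes was not tested.

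All calls in FBs were falls, of 0, 2, 1, 1 and 1 members at D1, D3, D7, D14 and D28, where 2.13%, 20.1%, 21.1%, 10.3% and 1.95% of the 563 miRNAs fell. At D1 3 members had an unadjusted p under 0.05 and 0 passed in DESeq2. Over all days 2 of 6 members passed, where 68.2% of all miRNAs did. On the TMM scale 2, 1, 1, 1 and 0 members did not overlap with D0, where 15.8%, 36.9%, 36.4%, 22.9% and 10.1% of all miRNAs did not.

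The log2 ratio of mir-151 in FBs was -0.80, -3.02, -0.56 and -0.73 at D0 and -3.09, -2.64, -2.34 and -2.88 at D7. It changed over the days (limma, adjusted p = 0.025), where 49.7% of the 147 hairpins did, and fell at D7 by 1.45 ± 0.46 (adjusted p = 0.024). The adjusted p over the days was 6.2e-04 without replicate 2 of D0 and 0.051 without replicate 1. Without replicate 2 the ratio of mir-151 fell by 1.52 ± 0.38 at D3, 2.04 ± 0.38 at D7 and 2.09 ± 0.38 at D14, and that of mir-28a fell by 0.69 ± 0.25 at D7 (limma, adjusted p = 0.0067, 0.0019, 0.0011 and 0.047). The ratios of mir-28a (adjusted p = 0.20) and mir-708 (adjusted p = 0.090) did not pass in limma. By day, 0, 0, 1, 0 and 0 of the 3 hairpins passed, where 3.4%, 25.9%, 22.4%, 3.4% and 0.68% of all hairpins did.

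In HCs both arms of miR-151 fell after infarction, and the mean share of the EC markers in these libraries was also lower on every later day. miR-151-3p had 1007, 1483, 875 and 1599 CPM at D0 and 459.2, 492, 667.5 and 292.8 CPM at D3, without overlap. Its log2 changes from D1 to D28 were -1.39, -1.89, -1.19, -1.12 and -0.88 (SE 0.30 to 0.31), and all passed in edgeR, with adjusted p-values from 8.5e-06 (D3) to 0.034 (D28). miR-151-5p had 157.4, 477.7, 1641 and 526.4 CPM at D0 and 269.2, 175.3, 93.3 and 94.9 CPM at D1, where the groups overlapped. Its log2 changes from D1 to D14 were -2.05, -1.77, -1.90 and -1.34 (SE 0.50 to 0.51), and all passed in edgeR, with adjusted p-values from 0.0015 (D1) to 0.047 (D14).

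The 1641 CPM belong to the shallow replicate 3 of D0 and stand for 30 counts. Without this library miR-151-5p fell by 1.75 at D1, 1.46 at D3 and 1.59 at D7, and its change of -1.04 at D14 did not pass (edgeR, adjusted p = 0.11). miR-151-3p then fell by 1.53, 2.03, 1.33, 1.26 and 1.02 at the 5 days. The D14 call of miR-151-5p and the D28 call of miR-151-3p were lost in 14 and 9 of the 24 fits without 1 library, with adjusted p-values up to 0.12 and 0.14 in edgeR (both without replicate 4 of D0).

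From D0 to D1, D3, D7, D14 and D28 the mean share of the EC markers in HCs was 7.23%, 4.68%, 1.87%, 2.10%, 3.48% and 2.21%, with D0 libraries at 5.49% to 9.18%. The CM markers had 8.58% to 13.2% in the D0 libraries of HCs and means of 9.15%, 4.91%, 3.34%, 5.66% and 3.42% on the later days. The HC markers had 0.803% at D0 (0.682% to 1.00%) and 2.05%, 2.07%, 1.73%, 1.12% and 0.983% later, and the FB markers had 0.432% at D0 and 0.290% (D3) to 1.55% (D28) later. The part of these markers in the changes was not tested.

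Of the other hairpins in HCs, miR-28a-5p fell at D1 only, by 0.80 ± 0.16 (edgeR, adjusted p = 2.3e-04), from 159.7, 180.1, 273.4 and 187.3 CPM to 132.7, 140.7, 128.1 and 154.6 CPM, without overlap, and by 0.79 without the shallow library. miR-28a-3p passed at 0 days in edgeR, with 0 days at an unadjusted p under 0.05 and changes of -0.36 to 0.01. miR-708-5p fell at D28 by 1.26 ± 0.27 (adjusted p = 7.8e-04), from 5.10, 5.07, 0 and 6.13 CPM to 2.75, 2.46, 3.57 and 2.46 CPM, and by 1.27 without the shallow library. The 0 is the shallow library, where even 3 counts would be 164.1 CPM.

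miR-708-3p had 3.18, 3.73, 54.7 and 3.86 CPM at D0, of which 54.7 CPM is 1 count of the shallow library, and 1.56, 1.72, 1.52 and 1.44 CPM at D28. It fell on 4 of the 5 days, with log2 changes of -0.90 ± 0.36 (D1, edgeR, adjusted p = 0.040), -1.48 ± 0.38 (D3), -1.01 ± 0.35 (D14) and -1.56 ± 0.35 (D28, adjusted p = 0.0015). Without the shallow library it fell by 0.85, 1.43, 0.96 and 1.52. Its calls at D1 and D14 were lost in 8 and 10 of 24 fits without 1 library, with adjusted p-values up to 0.15 for D1 (replicate 4 of D1 left out) and 0.095 for D14 (replicate 4 of D0 left out) in edgeR. In DESeq2 the calls at D1, D3 and D14 were lost (adjusted p = 0.29, 0.084 and 0.23). With library size only, those at D1 and D14 were lost in edgeR (adjusted p = 0.31 and 0.14).

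All 15 calls of the 30 comparisons in HCs were falls, of 4, 3, 2, 3 and 3 members at D1, D3, D7, D14 and D28, where 28.9%, 28.1%, 19.6%, 12.8% and 11.3% of the 608 miRNAs fell. Over all days 5 of 6 members passed, where 73.5% of all miRNAs did. On the TMM scale 1, 2, 1, 2 and 2 members did not overlap with D0, where 28.9%, 33.1%, 24.5%, 18.9% and 20.1% of all miRNAs did not.

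The ratio of mir-28a in HCs changed over the days (limma, adjusted p = 0.0075), where 15.8% of the 152 hairpins did. It was 0.05 ± 0.35 at D0, -0.38 ± 0.25 at D1 and 0.57 ± 0.22 at D28 (SD, n = 4), and no single day passed against D0. Without the shallow library of D0 the adjusted p over the days was 5.9e-04, and the ratio fell at D1 by 0.60 ± 0.17 (limma, adjusted p = 0.015). The ratio of mir-708 rose at D1 by 1.64 ± 0.49 (adjusted p = 0.027) and at D3 by 1.78 ± 0.49 (adjusted p = 0.013), but did not pass over all days in limma (adjusted p = 0.079), and that of mir-151 did not pass (adjusted p = 0.54). In the shallow library the ratio of mir-708 was -1.58 from 1 count, against 0.44 to 0.68 in the other D0 libraries. Without it the change of mir-708 was 1.09 ± 0.42 at D1, where the call was lost (limma, adjusted p = 0.054), and 1.24 ± 0.42 at D3 (adjusted p = 0.029). By day, 1, 1, 0, 0 and 0 of the 3 hairpins passed, where 15.8%, 22.4%, 5.92%, 0% and 1.32% of all hairpins did.

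Whether the course over the days differs between cell types was tested as an interaction in edgeR. Over ECs, FBs and HCs 5 of 6 members passed, where 60.3% of 712 miRNAs did, and 4 with the replicate number within a day as a block. The adjusted p was 3.2e-04 for miR-151-3p, 0.0024 for miR-28a-3p, 0.0059 for miR-151-5p, 0.0073 for miR-708-5p, 0.046 for miR-28a-5p (0.096 with the block) and 0.14 for miR-708-3p. With CMs all 4 arms of miR-28a and miR-708 passed, from 1.8e-13 for miR-28a-3p to 0.017 for miR-28a-5p, where 76.3% of all miRNAs did. With library size only, edgeR lost miR-151-5p over ECs, FBs and HCs (adjusted p = 0.084) and miR-708-3p with CMs (adjusted p = 0.23). Without the filter miR-28a-5p was lost over ECs, FBs and HCs (edgeR, adjusted p = 0.74) and with CMs (adjusted p = 0.32).

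Between cell types, 23 of 30 pairs of mean levels differed on the TMM scale in edgeR, leaving out the 6 pairs of miR-151 with CMs, which were not tested. As background 69.4% of miRNAs differed between CMs and ECs, 75.7% between CMs and FBs, 77.7% between CMs and HCs, 71.8% between ECs and FBs, 77.7% between ECs and HCs and 85.7% between FBs and HCs. miR-151-3p was 1.28 ± 0.16 higher in ECs than in FBs and 1.56 ± 0.16 higher in FBs than in HCs (log2 ± SE, adjusted p = 5.4e-12 and 1.2e-15 in edgeR). miR-151-5p was 0.93 ± 0.17 higher in ECs than in FBs and 1.07 ± 0.17 higher in FBs than in HCs (adjusted p = 9.0e-07 and 2.7e-08). At D0 alone, FBs minus HCs was 0.39 for miR-151-3p and 0.43 for miR-151-5p, and neither passed (edgeR, adjusted p = 0.32 and 0.43). ECs minus FBs for miR-151-5p was 0.88 at D0 alone and did not pass (edgeR, adjusted p = 0.088). As a description, the level of CMs minus that of ECs, FBs and HCs was -2.24, -0.96 and 0.60 for miR-151-3p and -0.61, 0.32 and 1.39 for miR-151-5p.

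miR-28a-5p was highest in CMs, 0.60 ± 0.10 above FBs, which were 0.22 ± 0.10 above ECs (edgeR, adjusted p = 0.043, but 0.055 with the replicate block and 0.092 without the farthest library of 3 groups), and ECs and HCs were not separated (adjusted p = 0.080). At D0 alone, CMs minus FBs was 0.37 for miR-28a-5p and CMs minus HCs was 0.56, and neither passed (edgeR, adjusted p = 0.22 and 0.083). miR-28a-3p was not separated between CMs, ECs and FBs (adjusted p = 0.28 to 0.90 in edgeR) and on the TMM scale was lowest in HCs, by 0.58 ± 0.11 to 0.70 ± 0.11. miR-708-5p was not separated between ECs and CMs (adjusted p = 0.34 in edgeR), was 0.63 ± 0.17 higher in CMs than in HCs, and was lowest in FBs, 0.35 ± 0.14 below HCs. Its difference between CMs and HCs did not pass in DESeq2 (0.32, adjusted p = 0.066) or without the filter (0.25, adjusted p = 0.30 in edgeR). miR-708-3p was not separated between CMs and ECs (adjusted p = 0.29) or between FBs and HCs (adjusted p = 0.056 in edgeR, but 0.046 with the replicate block).

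The place of CMs in these orders depends on the scaling, and so does that of HCs for miR-28a-3p. With library size only, CMs were below each of the other cell types for all 6 arms. For miR-28a-3p, ECs minus HCs was then -0.16 (edgeR, adjusted p = 0.10) and FBs minus HCs was 0.089 (adjusted p = 0.34). On the TMM scale at D0 alone these 2 differences were -0.087 and 0.19 (edgeR, adjusted p = 0.83 and 0.57). At D0 alone on the TMM scale, CMs exceeded ECs by 1.01 and FBs by 2.16 for miR-151-3p, and by 2.17 and 1.89 for miR-28a-3p, in contrast to the mean over days. The 5p arms of miR-151 and miR-708 went the other way there. CMs minus ECs, FBs and HCs was -2.78, -1.90 and -1.47 for miR-151-5p, without a test. For miR-708-5p, with 1 to 5 counts in CMs, these differences were -3.14, -0.65 and -1.92 (edgeR, adjusted p = 1.1e-05, 0.35 and 0.0037). The lead of ECs over FBs and HCs for both arms of miR-151 kept its direction under all settings tried.

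As a description over 24 group means, which share libraries and scaling, Pearson's r on the TMM scale was 0.75 between miR-151-3p and miR-28a-3p, 0.67 between miR-28a-3p and miR-708-3p and 0.60 between miR-151-3p and miR-708-3p. Between the arms of a hairpin r was 0.35 for mir-151, 0.21 for mir-28a and 0.12 for mir-708. Among 295 other miRNAs the profiles most like the members were those of miR-26b-5p (0.85) and miR-335-5p (0.83) for miR-151-5p and of miR-99b-5p (0.92) and miR-211-5p (0.86) for miR-151-3p. They were miR-328-3p (0.88) and miR-3074-1-3p (0.84) for miR-28a-5p, and let-7f-5p (0.92) and let-7a-5p (0.79) for miR-28a-3p. For miR-708-5p they were miR-194-5p (0.77) and miR-322-5p (0.76), and for miR-708-3p miR-143-3p (0.80) and miR-30a-3p (0.79).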

How the data were processed

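The authors trimmed reads (Trim Galore), aligned them to mature and then hairpin miRNAs (Bowtie2, SAMtools) and deposited raw counts per mature miRNA and library, and the submitters' notes name mm10. Lines without a miRNA were left out. How reads matching several miRNAs were counted is not given in the sources used here, and no other miRNA had the counts of a member. Reads carry no molecular identifiers, so counts are not molecules.

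Groups and replicate numbers follow the sample labels. Each day was compared with D0 inside a cell type (24 libraries) by edgeR 4.0.16 in R 4.3.3, with TMM factors, filterByExpr and the quasi-likelihood test. For the arm ratio, limma 3.58.1 was run on log2 of the counts plus 0.5, on hairpins whose arms each averaged 10 counts or more. Levels between cell types and the interaction used all 96 libraries. Benjamini-Hochberg adjustment covered all miRNAs or hairpins tested, with a threshold of 0.05. The fits were tested on simulated data. A count of 0 allows up to 3 counts, which covers counting error only.

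Alternatives were DESeq2 1.42.0, library size only, no filter, the replicate number as a block, the compared days alone, D0 alone, 5 added to each count, a mean of 50 counts per arm, and leaving out each library. The library farthest from its group was also left out for D28 of ECs and for D0 of FBs and of HCs, where the study removed 1 library it does not name. Members, lists and tests were chosen with earlier results of these data known. Other miRNAs named are cell type markers or, per member, the 2 most correlated miRNAs with 10 CPM or more on average. Sequences are from RefSeq (GRCm38.p6) and gene positions from the GRCm38 annotation.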

Additional observations from a re-analysis of the deposited data

Results flagged for a closer look

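In 16 of 216 sets of 4 libraries (6 arms and 3 arm ratios in 24 groups) 1 library stood apart from the other 3, where chance gives about 1 in 20. In CPM the highest library stood apart for miR-708-5p in CMs at D0 (replicate 1, 0.48 against 0.062 to 0.076), miR-28a-5p in CMs at D7 (replicate 2, 185.2 against 90.4 to 97.7), miR-151-3p in ECs at D1 (replicate 4, 2897 against 1906 to 2024) and at D14 (replicate 4, 5097 against 2172 to 2649), miR-151-5p in ECs at D28 (replicate 1, 1189 against 147.6 to 229.5), miR-28a-3p in FBs at D1 (replicate 1, 174.7 against 156.8 to 158.3) and miR-708-3p in HCs at D0 (replicate 3, 54.7 against 3.18 to 3.86, from 1 count). The lowest stood apart for miR-708-3p in ECs at D14 (replicate 2, 0.91 against 3.48 to 3.91) and miR-28a-5p in FBs at D28 (replicate 4, 120.1 against 153.4 to 159.3).

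In the log2 arm ratio the highest library stood apart for mir-28a in CMs at D7 (replicate 2, 1.93 against 1.03 to 1.17) and mir-151 in FBs at D3 (replicate 1, -1.16 against -2.65 to -2.51). The lowest stood apart for mir-708 in ECs at D7 (replicate 3, 0.48 against 0.76 to 0.80), mir-151 in FBs at D0 (replicate 2, -3.02 against -0.80 to -0.56) and at D28 (replicate 4, -3.09 against -1.91 to -1.74), mir-708 in HCs at D0 (replicate 3, -1.58 against 0.44 to 0.68, from 1 count) and mir-151 in HCs at D14 (replicate 4, -3.30 against -1.37 to -1.05).

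The course over the days differed between cell types in the interaction test of edgeR. Over ECs, FBs and HCs the adjusted p was 0.0059 for miR-151-5p, 3.2e-04 for miR-151-3p, 0.046 for miR-28a-5p, 0.0024 for miR-28a-3p and 0.0073 for miR-708-5p. With CMs it was 0.017 for miR-28a-5p, 1.8e-13 for miR-28a-3p, 1.5e-06 for miR-708-5p and 8.0e-04 for miR-708-3p. As given above, some settings lost miR-151-5p over ECs, FBs and HCs, miR-708-3p with CMs, and miR-28a-5p in both sets.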

How the results depend on the processing

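The comparisons that passed were 15 of 20 in CMs, 7 of 30 in ECs, 5 of 30 in FBs and 15 of 30 in HCs. Without 1 library they ranged from 13 to 15, 4 to 8, 4 to 6 and 11 to 16, with 4 in ECs without replicate 1 of D0 or replicate 2 of D3. They were 11 in ECs with the compared days alone and 8 in FBs with library size only, and elsewhere stayed within 1.5 times. Hairpins with a changed ratio were 2 of 2 in CMs, 2 of 3 in ECs, 1 of 3 in FBs and 1 of 3 in HCs, and without 1 library 2 to 2, 1 to 3, 0 to 2 and 1 to 2. These went to 1 in CMs with a mean of 50 counts per arm (1 hairpin left), 1 in ECs without the farthest replicate, 0 in FBs and 0 in HCs without the filter, 0 in FBs without replicate 1 of D0, 2 in FBs without replicate 2 of D1 or replicate 4 of D3, and 2 in HCs without replicate 1 of D1. Except for the fewer hairpins tested, the cause was not tested.

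The cell types of a day share mice, but whether equal numbers mark the same mice is not given in the sources used here. Of 144 pairs with the same day and number in 2 cell types, 23 had a correlation over 0.1 (-0.43 to 0.29). Pairs with the same number at 2 days, which cannot share mice, exceeded 0.1 in 13, 17, 13 and 8 of 60 in CMs, ECs, FBs and HCs. The correlations therefore cannot decide whether equal numbers mark the same mice, and the numbers were not taken as pairs. The replicate block left 14, 6, 4 and 15 calls in CMs, ECs, FBs and HCs. It lost miR-708-3p in CMs at D1 (adjusted p = 0.074), miR-708-5p in ECs at D7 (0.059), miR-151-5p in FBs at D28 (0.062), miR-28a-5p between ECs and FBs (0.055) and its interaction over ECs, FBs and HCs (0.096, all edgeR), and gained miR-708-3p between FBs and HCs (0.046).

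Directions turned for miR-28a-5p in CMs, with log2 changes at D3, D7, D14 and D28 of 1.69, 2.04, 2.58 and 1.79 with library size only and 0.034, 0.080, 0.34 and 0.27 without the filter. At D14 it was 0.083 in DESeq2, 0.028 with the replicate block and 0.21 without replicate 4 of D0, and at D28 it was 0.18 without that library and 0.084 without replicate 1 of D28. Without 1 library it ranged from -0.40 to 0.21 at D14 and from -0.28 to 0.18 at D28. In ECs at D28 it ranged from -0.059 without replicate 1 of D28 to 0.60 without replicate 3. Pairs of cell types that differed were 23 of 30 and 16 at D0 alone. Library size only gave CMs minus ECs of -0.62 for miR-28a-5p and -1.19 for miR-708-3p. CMs minus FBs was -0.98 for miR-28a-5p, -0.58 for miR-708-5p and -0.47 for miR-708-3p. CMs minus HCs was -1.17 for miR-28a-5p, -1.69 for miR-28a-3p, -1.52 for miR-708-5p and -0.71 for miR-708-3p. ECs minus HCs was -0.55 for miR-28a-5p and -0.16 for miR-28a-3p, and FBs minus HCs was -0.19 for miR-28a-5p and -0.24 for miR-708-3p. At D0 alone, CMs minus ECs was 2.17 for miR-28a-3p, CMs minus FBs was 1.89 for miR-28a-3p and -0.65 for miR-708-5p, CMs minus HCs was -1.92 for miR-708-5p, ECs minus HCs was -0.30 for miR-28a-5p and -0.087 for miR-28a-3p, and FBs minus HCs was -0.83 for miR-708-3p. Without the filter, miR-28a-3p had 0.12 for CMs minus ECs, miR-28a-5p had -0.30 for ECs minus HCs and -0.0058 for FBs minus HCs, and miR-708-3p had -0.059 for FBs minus HCs. In DESeq2 miR-28a-5p had -0.033 for ECs minus HCs. With 1 to 5 counts in CMs at D0, depth limits the fold of miR-708-5p there.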
